A study of Mus musculus with 12 samples.

Results

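CD8 T cells that recognise a tumour antigen were compared after PD-1 blockade and after a control antibody, gene by gene. Members were all genes with a fold change in the authors' deposited table of anti-PD-1 DANA against isotype, 17833 of the 48709 genes listed (36.6%). Wild-type C57BL/6 mice at postnatal day 91 carried TRAMP-C2 tumours, a transplantable mouse prostate cancer line, and draining lymph nodes were sorted for live cells positive for CD45, CD3, CD8 and the tumour antigen Spas-1 and negative for Spas-2. One arm received anti-PD-1 DANA and the other an isotype control antibody, on days 3, 6 and 9 per the sample labels or 3, 6 and 8 per the series text, and nodes were taken on day 28. That day is reckoned from treatment by the labels but from injection of the tumour by the series text. The other arms of the series received anti-CTLA-4 alone or both blocking antibodies (Combo). Cells of 5 mice were pooled in each arm and divided into 3 libraries, so the p-values measure only the spread between splits of 1 pool, and the treatment cannot be told apart from the pool. In bulk RNA, more cells of a kind and more RNA per cell cannot be told apart either.

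PD-1 is an inhibitory receptor that T cells acquire on activation and keep under chronic antigen exposure. When its ligands PD-L1 or PD-L2 engage it, phosphatases recruited to its tail dampen signalling from the T cell receptor and from CD28. Blocking antibodies release this brake, and the DANA form of the antibody carries a mutated Fc part that does not engage Fc receptors, so that it blocks PD-1 without marking the T cell for Fc receptor-bearing cells. Activated CD8 T cells kill through granules that hold the pore former perforin and serine proteases called granzymes, and the T-box factors T-bet and Eomes drive this programme.

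After anti-PD-1 DANA, several genes of the killing machinery and single costimulatory genes were higher than in the isotype pool. Perforin (Prf1), the granzymes Gzmb and Gzmk, T-bet (Tbx21) and the costimulatory receptor OX40 (Tnfrsf4) were all called higher, at log2 fold changes from 6.65 to 11.28 in the authors' deposited table. Genes of antigen receptor signalling and of naive and recirculating T cells did not pass the test, and neither did Pdcd1, the gene of PD-1 itself. The authors' deposited table called 669 of 17833 tested genes (3.75%) at a false discovery rate (FDR, the Benjamini-Hochberg adjusted p) under 0.05, 434 of them higher (2.43%) and 235 lower (1.32%). Fold changes of called genes were mostly large: the median absolute log2 fold change was 7.07 among called genes and 1.56 among the others in the authors' deposited table, and no gene was called higher at less than 4.06. Values after ± are standard errors implied by the deposited p-value under a Wald test. RPKM, the unit of level, divides a gene's reads by its exon length and by the reads of the library. Library sizes recovered from the steps of low RPKM values were 24233466, 26771040 and 31943900 reads for anti-PD-1 DANA and 23973359, 24512669 and 32867235 reads for isotype, in ascending order and not tied to replicate numbers, far above the reads per library that the labels' protocol states. Scaling by these sizes would raise log2 fold changes by 0.82, a median over 374 genes that was applied here to every gene. Among 425 genes with a log2 fold change above 3, the median difference was 1.02. With the single shift of 0.82, the median over tested genes would be 0.37 in place of -0.45. It would call 1227 genes (6.88%), 1061 of them higher (5.95%) and 166 lower (0.931%).

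The upstream sequences of the granule genes Prf1, Gzmb and Gzmk are shown because all 3 were called higher together with Tbx21, whose product T-bet binds T-box elements. Each is the 250 bases before the RefSeq start site on build GRCm38.p6, 5′ to 3′ on the strand of the gene, at chr10:61297586-61297835 (plus strand), chr14:56262335-56262584 (minus strand) and chr13:113180966-113181215 (minus strand). In the authors' deposited table the genes lie at chr10:61297836-61304263, chr14:56258856-56262260 and chr13:113171608-113225908. The Gzmk window thus lies inside the deposited gene, upstream of the RefSeq start site but not of the whole gene. The Gzmb window lies beyond the deposited gene without adjoining it. Capitals mark the T-box core TCACAC or its reverse complement GTGTGA.
Prf1: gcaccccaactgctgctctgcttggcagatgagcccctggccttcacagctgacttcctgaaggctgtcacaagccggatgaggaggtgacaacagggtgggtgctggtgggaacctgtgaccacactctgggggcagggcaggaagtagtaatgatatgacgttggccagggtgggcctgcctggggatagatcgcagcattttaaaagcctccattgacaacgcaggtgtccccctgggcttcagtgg
Gzmb: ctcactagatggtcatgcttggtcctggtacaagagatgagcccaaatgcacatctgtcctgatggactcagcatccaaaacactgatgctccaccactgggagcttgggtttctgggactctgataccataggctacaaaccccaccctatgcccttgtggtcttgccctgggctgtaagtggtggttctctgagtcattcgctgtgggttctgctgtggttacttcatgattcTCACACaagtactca
Gzmk: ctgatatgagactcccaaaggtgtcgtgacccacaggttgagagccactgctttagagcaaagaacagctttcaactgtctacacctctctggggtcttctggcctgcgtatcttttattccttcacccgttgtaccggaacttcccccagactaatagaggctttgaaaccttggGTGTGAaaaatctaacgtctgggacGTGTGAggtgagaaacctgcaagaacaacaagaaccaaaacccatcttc
The core occurred once in the Gzmb window, starting at position -15 from the start site, and at -74 and -49 in the Gzmk window, both times as the reverse complement. The Prf1 window held no match. Among all 32851 RefSeq windows of the same length, 4039 (12.3%) held at least 1 match, so the letters are common, and a match is a description of the sequence and not of binding.

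Of the cytotoxic granule genes, 3 of 15 tested members were called higher and 0 lower, where 2.43% and 1.32% of all tested genes were, and the median log2 fold change was 0.71 in the authors' deposited table, against -0.45 over all tested genes. Prf1 had a mean of 33.1 RPKM after anti-PD-1 DANA and at most 6.09 RPKM in isotype, since the isotype mean cannot exceed the larger mean of any of the 3 deposited tables that share it. Its log2 fold change was 7.07 ± 1.33 (FDR = 0.000363) in the authors' deposited table, and it was 1 of 34 genes (0.191%) that also passed Bonferroni adjustment. Gzmk, a granzyme of early effector and memory CD8 T cells, had 18.9, 9.30 and 9.85 RPKM in the 3 anti-PD-1 DANA libraries, from 637, 346 and 437 reads. No isotype library could exceed 3.57 RPKM, so the groups did not overlap, and the log2 fold change was 7.58 ± 2.01 (FDR = 0.0212) in the authors' deposited table. Gzmb, the granzyme that cleaves caspases in the target cell, stood at 8.60 RPKM against at most 0.541 RPKM in isotype, an at least 15.9-fold higher mean, with a log2 fold change of 7.82 ± 2.28 (FDR = 0.0449) in the authors' deposited table.

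Some other granule genes pointed up without passing the test, and the most abundant ones differed little on the authors' scaling. Fasl, the death ligand, had 235, 1 and 1 reads in the anti-PD-1 DANA libraries, so its mean rests on 1 of them, and Gzmm had 12, 846 and 0 reads. Their log2 fold changes were 6.78 ± 2.59 and 5.59 ± 1.96 in the authors' deposited table (FDR = 0.196 and 0.133). Nkg7, a granule membrane protein, was the most abundant member at 644 RPKM and had a log2 fold change of 0.14 ± 0.39 in the authors' deposited table. Ctsw, the protease cathepsin W, stood at 290 RPKM and 0.71 ± 0.49 in the authors' deposited table. Both lie above -0.82, the value at which the 2 means are equal by library size. On that scaling both were higher after anti-PD-1 DANA.

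Among 12 effector transcription factors, Tbx21 was the called member, and the list median of -0.43 was close to the -0.45 of all tested genes in the authors' deposited table. Tbx21 had 14.5, 14.3 and 1.35 RPKM in the anti-PD-1 DANA libraries, from 872, 951 and 107 reads, so 1 library lay far below the others. The bound on an isotype library, 23.7 RPKM, does not separate the groups. Its log2 fold change was 6.65 ± 1.52 (FDR = 0.00559) in the authors' deposited table. Eomes, its close relative, showed the same low library, with 8.80, 10.3 and 1.12 RPKM, and stood at 2.03 ± 1.57 in the authors' deposited table. Prdm1, which encodes Blimp-1 of terminal effectors, stood at 7.15 ± 2.21 and missed the threshold (FDR = 0.0682) in the authors' deposited table.

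Costimulatory receptors and ligands held the largest rise, but the medians of both lists lay below that of all tested genes. The 13 tested TNF receptor family costimulators had a median of -0.59, with 7 negative, and the 9 tested CD28 family and B7 genes a median of -0.86, with 6 negative, in the authors' deposited table. Set against the median of tested genes at each member's own expression level, the list medians were 0.15 and -0.60, so only the second lay lower. Tnfrsf4, which sustains survival of activated T cells, had 9.98, 12.2 and 20.8 RPKM after anti-PD-1 DANA, from 330, 445 and 907 reads, while the 3 isotype libraries together held at most 6 reads. All 3 treated libraries were high, no isotype library could exceed 0.138 RPKM, and the mean was at least 312-fold higher. The deposited log2 fold change of 11.28 ± 3.04 (FDR = 0.0248) was the highest of all called genes in the authors' deposited table. Tnfsf14, the ligand LIGHT, was the other called member of 13 tested in this family, at 6.61 ± 1.83 (FDR = 0.0302) in the authors' deposited table, with 9.30 RPKM against at most 0.198 RPKM in isotype. Cd86, a ligand of CD28 and CTLA-4 best known from antigen-presenting cells, had 7.38, 2.56 and 5.60 RPKM after anti-PD-1 DANA, above the 1.37 RPKM that any isotype library could reach. It was the called member of 9 tested CD28 family and B7 genes, at 7.07 ± 1.91 (FDR = 0.0248) in the authors' deposited table. Cd40lg, the CD40 ligand, had 247, 0 and 0 reads after anti-PD-1 DANA and none in isotype, and was not called.

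The target of the antibody and its ligands did not pass the test. Pdcd1 had an isotype mean of 18.4 RPKM and a log2 fold change of -1.47 ± 1.47 in the authors' deposited table. Cd274, the gene of PD-L1, had 8.60, 0.144 and 5.37 RPKM in the anti-PD-1 DANA libraries and a log2 fold change of -0.86 ± 1.53 in the authors' deposited table. Ctla4 was known in every library of both arms: 1.15, 0.0481 and 5.28 RPKM after anti-PD-1 DANA and 0.913, 0.0350 and 3.43 RPKM in isotype. Both arms held a high, a low and a middle library for Ctla4, their ranges overlapped, and its log2 fold change was -0.31 ± 2.10 in the authors' deposited table. Lair1, a collagen receptor that inhibits lymphocytes, was the called member of 18 tested inhibitory receptors, at -7.59 ± 1.74 (FDR = 0.00556) in the authors' deposited table, with 6.29 RPKM in isotype. Cd244, Cd101 and Havcr2, the gene of TIM-3, stood at 10.03, 7.95 and 6.68 in the authors' deposited table without being called. Cd244 had 1, 2 and 772 reads in the anti-PD-1 DANA libraries, Cd101 342, 245 and 0, and Havcr2 267, 0 and 345, so each lacked reads in at least 1 treated library or nearly so.

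Interferon-gamma, which the series title names, was not called. Ifng had an isotype mean of 14.2 RPKM and a log2 fold change of -2.56 ± 1.86, and its receptor chains Ifngr1 and Ifngr2 stood at 0.94 ± 0.89 and -2.41 ± 1.87 in the authors' deposited table. None of 21 tested members of the interferon-gamma pathway was called, where 3.75% of all tested genes were. Their median was -0.78 in the authors' deposited table, against -0.79 for all tested genes of 5 RPKM or more. Among effector cytokines, 0 of 10 tested members were called. In lists this small a count of 0 lies near the 3.75% of all tested genes. Ccl4, a chemokine of activated CD8 T cells, had 21.8, 34.6 and 7.30 RPKM after anti-PD-1 DANA and stood at 4.78 ± 1.73 (FDR = 0.156) in the authors' deposited table. Ccl3, a related chemokine, had 12.5, 9.61 and 54.8 RPKM after anti-PD-1 DANA and 0.218, 22 and 0.278 RPKM in isotype, so the groups overlapped through 1 isotype library. Ifi44, an interferon-induced gene, was the called member of 38 tested antiviral genes, at -8.65 ± 2.42 (FDR = 0.0324) in the authors' deposited table. It had 263, 0 and 3 reads in isotype, so the call rests on 1 library.

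**Figure D1:**
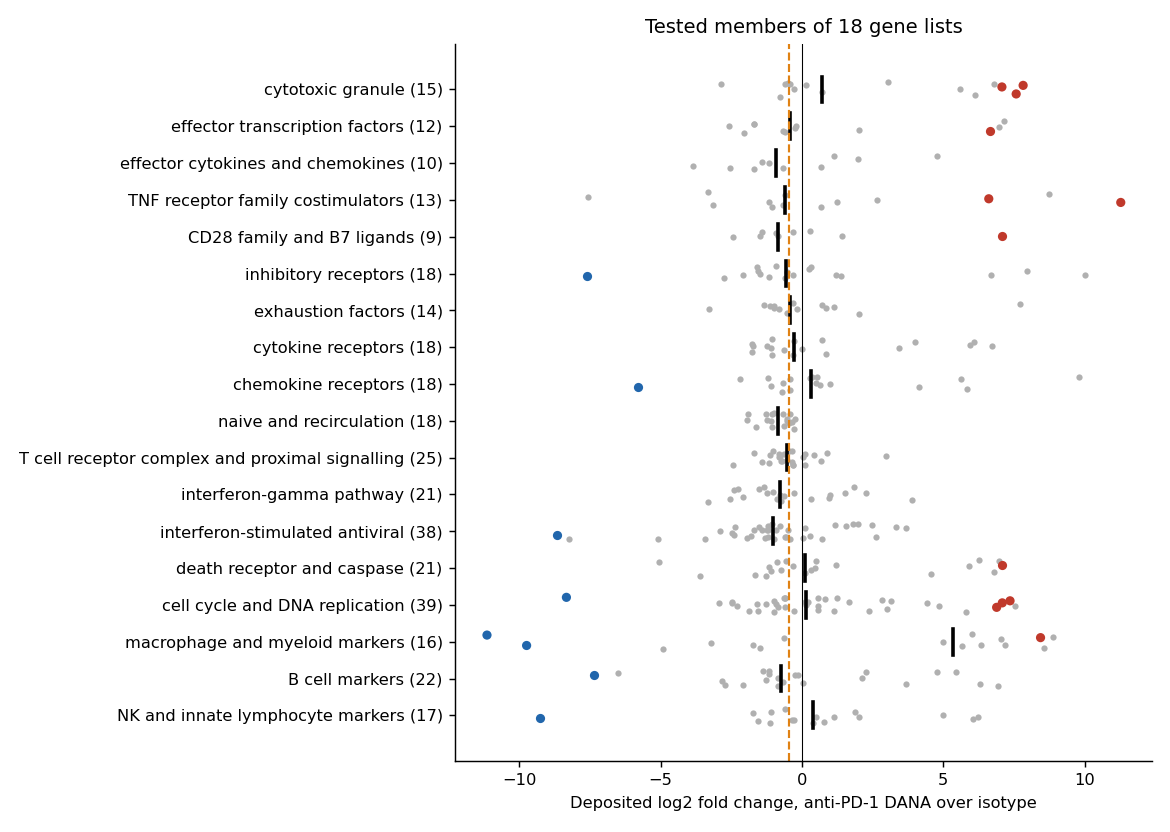
Deposited log2 fold change (horizontal axis) of every tested member of 18 gene lists (rows, number tested in brackets). Red and blue points were called higher and lower, grey points were not called, black bars are list medians and the dashed orange line is the median of all tested genes at -0.45. The cytotoxic granule list holds 3 called members on the right, the naive and recirculation list lies wholly left of 0, and the macrophage list has its median at 5.33 with called members on both sides.

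Genes of resting and recirculating T cells were lower in sign throughout but none was called. All 18 tested members of the naive and recirculation list had a negative log2 fold change, with a median of -0.83 in the authors' deposited table, and 5 had an unadjusted p under 0.05, all lower (7.77% of all tested genes were). Klf2, a factor that maintains quiescence and lymph node exit, stood at -1.95 ± 0.69 and Il7r, the receptor of the survival cytokine IL-7, at -1.10 ± 0.52 in the authors' deposited table. By library size the list median was -0.01, and set against tested genes at each member's own expression level it was -0.24. What gives the common sign was not tested. Of 25 components of antigen receptor signalling 0 were called, where 3.75% of all tested genes were. Their median was -0.52 in the authors' deposited table and 0.30 by library size. Cd8a, Cd8b1 and Cd3e, which define the sorted cells, were present at 147, 413 and 134 RPKM and had log2 fold changes of 0.09 ± 0.43, -0.52 ± 0.40 and -0.79 ± 0.50 in the authors' deposited table. On library size scaling Cd8b1 was at 0.30 and Cd3e at 0.03.

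Lists of activation and stress mostly leaned lower in sign, with few calls in either direction. Of all tested genes 7760 were positive and 10073 negative, and 2.43% were called higher and 1.32% lower. In lists this small, the counts of calls lie near those shares. Among 25 tested immediate early genes 3 were positive and 22 negative, with a median of -1.13 and 1 called higher in the authors' deposited table. Among 22 negative regulators of receptor signalling 5 were positive and 17 negative, with a median of -1.07, 1 called higher and 1 lower in the authors' deposited table. Among 19 heat shock chaperones 2 were positive and 17 negative, with 1 called lower in the authors' deposited table. By library size the medians of these 3 lists were -0.30, -0.25 and 0.04. Set against tested genes at each member's own expression level they were -0.26, -0.56 and -0.16. Dusp5, a phosphatase of nuclear ERK induced by receptor signalling, was called higher at 6.82 ± 1.83 (FDR = 0.023) in the authors' deposited table, with 251, 947 and 22 reads in the anti-PD-1 DANA libraries. Rgs1, which damps chemokine receptor signalling, was called higher at 7.37 ± 1.72 (FDR = 0.00667) and Gadd45b, a stress sensor induced in activated T cells, at 6.70 ± 1.78 (FDR = 0.0212) in the authors' deposited table. Dusp2, another activation-induced phosphatase, was called lower at -2.35 ± 0.58 (FDR = 0.0125) and the chaperone Hsph1 at -2.75 ± 0.78 (FDR = 0.037) in the authors' deposited table. On library size scaling these 2 stood at -1.53 and -1.92 and were no longer called, while the 3 higher genes still were. Casp6, an executioner caspase, was the called member of 21 tested death receptor and caspase genes, at 7.07 ± 1.94 (FDR = 0.0275) in the authors' deposited table. Birc6, a large inhibitor of apoptosis, was called lower at -1.80 ± 0.46 (FDR = 0.0146) in the authors' deposited table and was not called on library size scaling, at -0.98.

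Of 39 tested cell cycle genes 3 were called higher and 1 lower, where 2.43% and 1.32% of all tested genes were, and 21 were positive and 18 negative. Their median was 0.14 in the authors' deposited table, against -0.45 over all tested genes. The 3 were Dut, which keeps uracil out of DNA, at 7.09 ± 1.62, Rrm1, a subunit of ribonucleotide reductase, at 6.89 ± 1.74, and Stmn1, a microtubule destabiliser of dividing cells, at 7.36 ± 2.13 in the authors' deposited table. Dut had 457, 1548 and 838 reads in the anti-PD-1 DANA libraries, whereas Stmn1 had 183, 0 and 934. For Dut an isotype library could reach 10.4 RPKM, above the lowest anti-PD-1 DANA library at 7.82 RPKM, so the groups could overlap. E2f2, a transcription factor of the cell cycle, was called lower at -8.33 ± 1.61 (FDR = 0.00054) in the authors' deposited table, from 7.78 RPKM in isotype. The replication factor Cdc45, which is not in this list, was called lower too, at -9.44 ± 1.74 (FDR = 0.000363) in the authors' deposited table. The proliferation marker Mki67 had at most 0.464 RPKM in any anti-PD-1 DANA library, and Pcna, the replication clamp, stood at 0.57 ± 1.53 in the authors' deposited table.

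Markers of other cell types moved in part with these results. Of 16 tested macrophage and myeloid markers, 1 was called higher and 2 lower, where 2.43% and 1.32% of all tested genes were. At an unadjusted p under 0.05, 8 lay on the higher side and 3 on the lower (15.3% and 7.77% of all tested genes). The median was 5.33 in the authors' deposited table. Csf1r, the receptor of the macrophage growth factor, was called higher at 8.44 ± 2.10 (FDR = 0.0126) in the authors' deposited table, with 3.88 RPKM after anti-PD-1 DANA and at most 3 reads in isotype. Fcgr3, an Fc receptor, and Ccl7, a monocyte chemokine, were called lower, with values of -11.14 ± 3.05 and -9.74 ± 2.46 in the authors' deposited table. Fcgr3 had 467, 3 and 0 reads and Ccl7 0, 726 and 1 reads in the isotype libraries, so each rests on 1 library, and not on the same one. The complement genes C1qb, with 0, 306 and 0 reads, and C1qc, with 217, 0 and 0 reads, each rested on 1 anti-PD-1 DANA library too.

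Summed over the 21 listed macrophage and myeloid markers, the mean lay between 97.4 and 137 RPKM after anti-PD-1 DANA and between 88.6 and 95 RPKM in isotype in the authors' deposited table. The macrophage ranges thus do not overlap, by a narrow gap. Adgre1, Fcgr1, Cd14, S100a8 and S100a9 were listed at 0 in both arms. B cell markers summed to between 266 and 465 RPKM after anti-PD-1 DANA and between 171 and 376 RPKM in isotype, so those ranges overlap. Blnk, an adaptor of the B cell receptor, was the called member of 22, at -7.35 ± 1.79 (FDR = 0.0105) in the authors' deposited table. NK and innate lymphocyte markers summed to between 131 and 205 RPKM after anti-PD-1 DANA and between 75 and 154 RPKM in isotype, ranges that overlap too. Their median was 0.39 in the authors' deposited table, with 9 of 17 positive and 3 at an unadjusted p under 0.05 on the higher side. Itga2, an integrin of NK cells, was the called member of these 17 NK and innate lymphocyte markers, at -9.27 ± 2.16 (FDR = 0.00667) in the authors' deposited table. Prf1, Gzmb and Tbx21 are also expressed by NK cells. Ncr1 and Klra8, which mark NK cells, were listed at 0 in both arms, whereas Klrb1c had 4.18 RPKM in 1 anti-PD-1 DANA library and none in the other 2. The part of any such cells in the calls was not tested.

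Over all 39 lists, 26 of 618 distinct tested genes were called (4.21%, against 3.75% of all tested genes), 15 higher and 11 lower. The share lies near the background and is no result about the lists. Ccr6, a chemokine receptor, was the called member not described above, at -5.78 ± 1.68 (FDR = 0.0438) in the authors' deposited table, and was not called on library size scaling, at -4.96. The anti-CTLA-4 and Combo tables share the isotype libraries with this one, and their values for the same genes are given side by side without a test. They called 4.23% and 7.53% of tested genes. Tnfrsf4 stood at 11.28 after anti-PD-1 DANA, 2.98 after anti-CTLA-4 and 8.84 after Combo in the authors' deposited tables, of which only the first was called. Gzmb stood at 7.82, 3.78 and 5.78 in the same order in the authors' deposited tables, again called only in the first, and Gzmk at 7.58, 4.0 and 6.60, called in the first and in Combo. Prf1 stood at 7.07, 5.57 and 5.34 and Tbx21 at 6.65, 7.27 and 6.97 in the authors' deposited tables, called in all 3. Csf1r stood at 8.44, -1.59 and 4.04 and Lair1 at -7.59, -3.86 and -1.06 in the authors' deposited tables, called in the first. Whether any of these differ between arms was not tested.

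**Figure D2:**
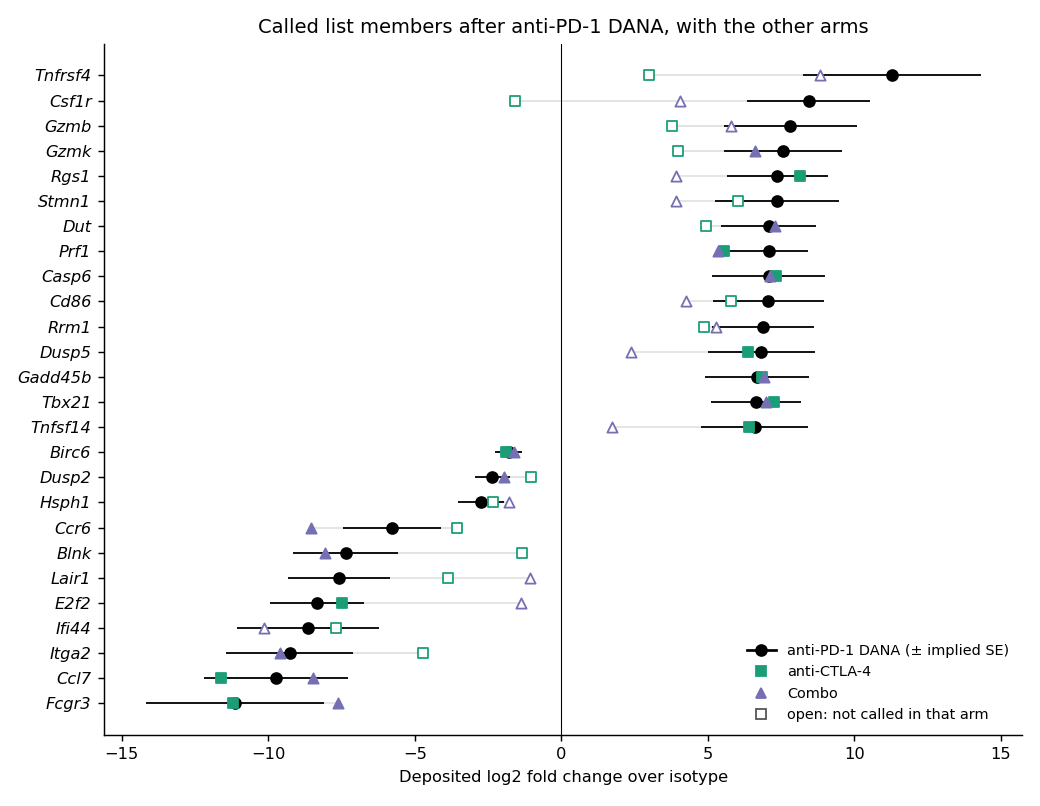
Deposited log2 fold change over isotype (horizontal axis) of the 26 called list members (rows) after anti-PD-1 DANA (black, bars ± 1 implied standard error), anti-CTLA-4 (squares) and Combo (triangles), filled where called in that arm. All arms share the 3 isotype libraries. Tnfrsf4 at 11.28 and Csf1r at 8.44 lie to the right of their values in the other arms, and Prf1, Tbx21, Casp6 and Gadd45b lie close together.

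Calls depended on expression level, taken as the larger of the 2 group means. The authors' deposited table called 17 of 8242 genes under 1 RPKM (0.206%), 239 of 3903 at 1 to 5 RPKM (6.12%), 358 of 3857 at 5 to 20 RPKM (9.28%), 50 of 1537 at 20 to 100 RPKM (3.25%) and 5 of 294 at 100 RPKM and over (1.70%). The 5 most abundant called genes were all lower, and none at that level was higher, whereas library size scaling would call 2 higher and 0 lower there. The implied standard error had a median of 2.62 in the lowest level and of 0.44 in the highest, so genes of low level needed larger changes to be called. Of all tested genes, 1631 had a mean of 0 in both arms, with a log2 fold change of about -0.59 that is a value of the fit and not a measurement. The 10 most abundant tested genes were all mitochondrially encoded, from mt-Nd4l at 3973 to mt-Atp6 at 30957 RPKM, and none was called, with log2 fold changes from -0.39 to 0.12 in the authors' deposited table. By library size, which adds 0.82 to each, all 10 lay above 0.

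**Figure D3:**
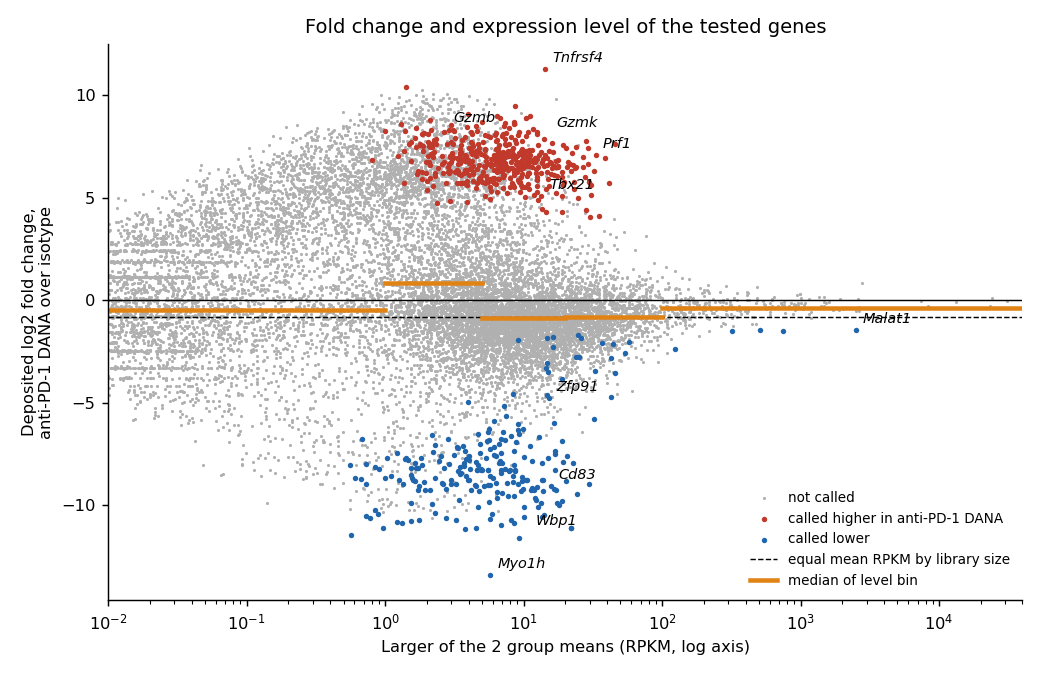
Deposited log2 fold change (vertical axis) against the larger group mean in RPKM (horizontal log axis) for tested genes of at least 0.01 RPKM. Red and blue points were called, orange bars are medians of the 5 levels, and the dashed line at -0.82 is where both group means are equal by library size. Red points lie at 4.06 and above and mostly between 1 and 20 RPKM, and the blue points at 100 RPKM and over lie below the dashed line, Dusp2 the farthest at -2.35.

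The precisely measured genes gave a different picture from the counts over all genes. Of 1248 tested genes with an implied standard error under 1, 26 were called (2.08%), 2 higher and 24 lower, and their median was -0.75 in the authors' deposited table. Map2k2, a kinase that activates ERK, was among the higher ones at 4.06 ± 0.93 (FDR = 0.00541) in the authors' deposited table. Zfp91, a zinc finger ubiquitin ligase, was the strongest of the lower ones at -4.78 ± 0.99 (FDR = 0.00177), followed by Scap, an escort protein of sterol regulation, at -3.57 ± 0.94, and Dync1h1, the dynein heavy chain, at -3.50 ± 0.73 in the authors' deposited table. Others had roles in RNA splicing, such as Sf3b1 at -2.02 ± 0.48 and Son at -1.69 ± 0.44, and in lipid signalling, such as Dgkd, a diacylglycerol kinase, at -2.78 ± 0.80 in the authors' deposited table. The abundant RNAs Malat1, a nuclear noncoding RNA, Lars2, Gm15564 and Rn18s-rs5 were at -1.45 to -1.5 in the authors' deposited table. The authors' scaling centred these precise genes well below 0, and by library size their median was 0.07. On that scaling 8 were called higher and 2 lower. Zfp91 was at -3.96 (FDR = 0.00782) and Dync1h1 at -2.67 (FDR = 0.0193).

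The 8 called higher by library size included Map2k2 and, named after their values were seen, 6 genes not called before. Ccl5, the chemokine RANTES of effector and memory CD8 T cells, had 483 RPKM and was at 1.49 (FDR = 0.0433) on library size scaling. Sema4a, a semaphorin of activated lymphocytes, was at 3.09 (FDR = 0.00446) and mt-Nd3 at 1.69 (FDR = 0.00281) on library size scaling. Ppp2r1a, the scaffold subunit of phosphatase PP2A, was at 3.41, Psd4 at 3.29 and Ptpn18, a tyrosine phosphatase, at 2.02. None of these 6 was called in the authors' deposited table.

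The 34 genes past Bonferroni adjustment were 15 higher and 19 lower. Among the higher were Prf1 and genes of redox control (Prdx2, Glrx3), autophagy (Atg3), ubiquitin turnover (Mkrn1, Usp11), RNA helicase function (Ddx47), the NuRD chromatin complex (Mta3) and mitochondrial protein processing (Immp1l), with Smap1, Fam98c, Cript, Tspyl1 and Tpd52l2. Prdx2 stood at 5.91 ± 1.10 and Atg3 at 6.51 ± 1.18 in the authors' deposited table, both at an FDR = 0.000363. Prdx2 had 14.9 RPKM after anti-PD-1 DANA against at most 12.7 RPKM in isotype, and Glrx3 8.08 against at most 7.59 RPKM. For these 2 genes the bound by itself guarantees only a small rise. Atg3 had 23.9 against at most 7.53 RPKM. Immp1l had 34.3, 44.7 and 58.9 RPKM in the 3 anti-PD-1 DANA libraries, close to each other, and stood at 7.62 ± 1.5 in the authors' deposited table. An isotype library could reach 42.9 RPKM, so these groups could overlap. Lower were the activation marker Cd83, the replication factor Cdc45, the kinase Rps6ka5, the kinesin Kif5c, the ETS factor Elk1, the Polycomb component Rybp, the cap methyltransferase Rnmt, the vitamin B6 kinase Pdxk and E2f2, with Myo1h, Dnhd1, Slc6a12, Wbp1, Gm42586, Adgrd1, Pip4k2c, Zkscan17, 9430015G10Rik and Accs. Cd83 stood at -9.07 ± 1.70 from 15.8 RPKM in isotype and Cdc45 at -9.44 ± 1.74 from 24.1 RPKM in the authors' deposited table, both at an FDR = 0.000363. Myo1h, a myosin, had the largest fall of all called genes, at -13.39 ± 2.72 (FDR = 0.00135) in the authors' deposited table.

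Where reads per library could be recovered, falls rested on fewer libraries than rises. Recovery reached 99 of 235 called lower genes, with 5 of 20 at 20 to 100 RPKM and 0 of 5 at 100 RPKM and over. It reached 0 of the 26 called genes with an implied standard error under 1. Of 99 called lower genes whose isotype reads could be recovered, 92 (92.9%) drew 80% or more of the isotype mean from 1 library, against 19 of 212 called higher genes (8.96%) for the anti-PD-1 DANA mean. Among genes not called, the shares over all levels were 68.0% of isotype-larger and 54.5% of anti-PD-1 DANA-larger genes. At 5 to 20 RPKM they were 90.0% of called lower against 78.0% of uncalled isotype-larger genes, and 2.42% of called higher against 14.8% of uncalled anti-PD-1 DANA-larger genes. At 1 to 5 RPKM they were 93.2% against 81.9%, and 19.2% against 47.1%. Means that rest on 1 library were thus common among genes not called in both arms. The single library was the smallest in 31, the middle one in 36 and the largest in 25 of the 92, so no 1 isotype library stood apart. Wbp1, which passed Bonferroni adjustment at -10.10 ± 1.85 in the authors' deposited table, had 2, 5 and 2392 isotype reads, and Gm42586, at -9.99 ± 2.03 there, had 2036, 4 and 1. Pklr, a pyruvate kinase, had 357, 0 and 0 reads, Prrt2 1, 1319 and 0, and Atxn7l1os2 0, 1 and 1180. Each of these falls therefore compares 1 isotype library with the treated pool.

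Among rises, the largest with the named rule held both even and uneven genes. Cbll1, a ubiquitin ligase, had 7.59, 6.4 and 5.25 RPKM in the 3 anti-PD-1 DANA libraries, against at most 1.2 RPKM in any isotype library, and stood at 9.00 ± 1.96 (FDR = 0.00339) in the authors' deposited table. Pex14, which imports proteins into peroxisomes, had 345, 184 and 582 reads after anti-PD-1 DANA and at most 2 in isotype. Usp11 had 1785, 221 and 653 reads, with no overlap either. In contrast Fgl2, a secreted fibrinogen-like protein, had 25, 1 and 1407 reads, Pradc1 799, 228 and 1, and Smyd2, a lysine methyltransferase, 473, 1073 and 0, so these groups could overlap. The other large rises, from 8.62 to 9.48 in the authors' deposited table, were Slc35f2, Hibch, an enzyme of valine breakdown, Tnfaip8l1, Litaf, Mcfd2 and Btg3. Over the 212 called higher genes with recovered reads, 82 (38.7%) had their lowest anti-PD-1 DANA library above anything an isotype library could reach. The share was 5.22% of 4689 such genes not called and 6.67% of all 4901 such genes. Calls rest on the same group difference, so a higher share among called genes was built in. For 407 called higher genes the isotype mean was bounded below the treated mean, and the bound gave at least a 2-fold rise for 328, 10-fold for 162 and 100-fold for 69, with the isotype bound set no lower than 3 reads over the group.

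**Figure D4:**
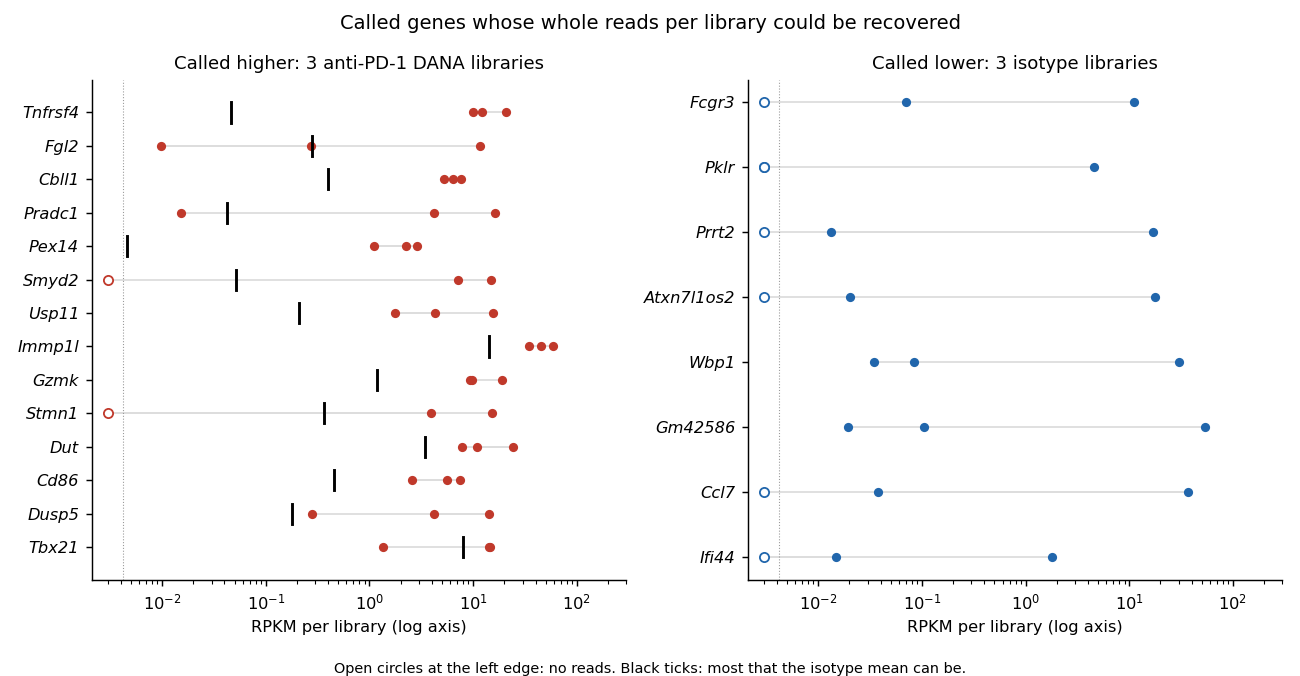
RPKM of each library (points, horizontal log axis) for 14 called higher genes in the 3 anti-PD-1 DANA libraries and for 8 called lower genes in the 3 isotype libraries. Open circles at the left edge mark libraries with no reads, and black ticks the most that the isotype mean can be. Tnfrsf4, Cbll1, Gzmk and Immp1l lie close together in all 3 treated libraries, whereas all 8 lower genes have 1 high isotype library.

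T cell receptor segments, whose RNA reports which clones were sorted, were called in 1.82% of 220 tested, against 3.75% of all tested genes. Of these, 2 were called higher, Trav12-2 at 7.43 ± 1.92 and Trav9-4 at 7.75 ± 2.19, and 2 lower, Trav17 at -11.13 ± 3.02 and Trav8-2 at -11.11 ± 3.04 in the authors' deposited table. They were named after their values were seen, and reads of near-identical segments can be split between family members. At the threshold, Mdp1 (FDR = 0.0488) and Asap1 (0.0492) lay just inside, and Ubtd1 (0.0503) and Nhlrc3 (0.0505) just outside in the authors' deposited table. Protein-coding genes made up 610 of the 669 calls, and 45 were noncoding RNAs other than pseudogenes.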

How the data were processed

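RNA of sorted CD8 T cells was amplified from 0.25 ng with 21 cycles and sequenced. Per the labels' protocols, CLC Genomics Workbench aligned and quantified the reads, on GRCm38.p5 per the submitters' processing notes. For its version, annotation and test, the details were not given in the sources used here. In 3 tables, 1 per treatment against isotype, the authors deposited a larger group mean in RPKM, a fold change as log2 and as a signed score, a p-value and p-values adjusted over all 48709 listed genes by false discovery rate and Bonferroni. A deposited false discovery rate under 0.05 made a call. The tables hold no value per library, so the count models named as alternatives could not be run.

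The rest was computed with Python 3.11.15. Standard errors were implied from fold change and p-value. Library sizes came from RPKM steps of single reads, and whole reads per library from an exact search that solved 69.7% of the 12507 means tried, against 0.52% with exon lengths off by 1 base. A second pass at greater depth solved 147 more means, which that control does not cover. It allowed up to 1.5 solutions expected by chance, against 0.05 in the first pass. Where 1 table alone held the lowest mean, a log2 fold change above 1 or below -2.5 told which arm it belonged to. The shift to library size (0.82) came from 374 genes with both means known and an isotype mean of 5 RPKM or more. The implied standard errors, like the p-values, cover only the spread between splits of 1 pool per arm. Of 2103 untested genes above 0, the highest, at 29406.5 RPKM, was a mitochondrial ribosomal RNA.

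Members and gene lists were chosen with earlier results of these data known. Named genes are those past Bonferroni adjustment, called genes with a standard error under 1, called list members, the 12 largest called changes each way at or above the median level (without receptor segments and predicted loci), the 10 most abundant genes, and 9 fixed genes (Pdcd1, Cd274, Ctla4, Ifng, Ifngr1, Ifngr2, Cd8a, Cd8b1 and Cd3e). Some genes that the rule names are not reported here. RefSeq promoter windows are on GRCm38.p6.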

Additional observations from a re-analysis of the deposited data

How the results depend on the processing

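No paired analysis was possible because the deposited tables hold no values per library, and for the same reason leaving out a library, DESeq2 and edgeR were not run. The 669 calls (434 higher, 235 lower) became 1596 (1075 and 521) with adjustment over tested genes only, 34 (15 and 19) with Bonferroni adjustment, 1989 (1395 and 594) among genes of 1 RPKM or more, 1227 (1061 higher) on library size scaling and 1197 (1028 higher) centred on the median of genes of 5 RPKM or more. Of the 669, 600 were also called on library size scaling and 603 when centred. The higher share of calls rose from 64.9% to 86.5% on library size scaling and 85.9% when centred. Leaving out the 92 lower calls found to rest on 1 library leaves 143 lower, most of which could not be assessed. Precise calls, 26 (2 higher, 24 lower), became 8 (0 and 8) with a standard error under 0.5, 120 (87 higher) under 1.5, 10 (8 and 2) on library size scaling and 9 (7 and 2) when centred. Adjusted over tested genes only, the 5 levels had 136, 805, 539, 102 and 14 calls, from the lowest up. List members called became 68 (39 and 29) over tested genes only, 47 (40 and 7) on library size scaling and 45 (38 and 7) when centred.

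Of 96 called named genes, 72 stayed called and 24 were lost on library size scaling, and likewise when centred, and none changed sign. Signs of uncalled genes turned on library size scaling for mt-Atp6 (0.82), mt-Atp8 (0.80), mt-Nd1 (0.76), mt-Cytb (0.57), mt-Co1 (0.56), Ctla4 (0.51), mt-Nd2 (0.47), mt-Co2 (0.47), mt-Nd4 (0.46), mt-Nd4l (0.44), Cd8b1 (0.30) and Cd3e (0.030). When centred they turned for mt-Atp6 (0.78), mt-Atp8 (0.76), mt-Nd1 (0.72), mt-Cytb (0.53), mt-Co1 (0.53), Ctla4 (0.47), mt-Nd2 (0.43), mt-Co2 (0.43), mt-Nd4 (0.42), mt-Nd4l (0.40) and Cd8b1 (0.26). Low group means limit the fold changes, since a few reads decide the lower arm, and the smaller mean of a gene is mostly not given in the tables.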
